A study of Saccharomyces cerevisiae with 16 samples.

Results

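The transcripts described here are those of 6560 coding sequences (CDS) of *Saccharomyces cerevisiae* outside the cytosolic ribosomal protein (RP) genes, compared between a culture in 20% glucose and a culture in LiCl. They are all of the 6697 CDS in the table except 137 RP genes, recognised by their gene symbols. Of the 6560 genes, 6465 had enough reads in both kinds of library, with a mean of at least 10 reads over the 8 libraries of a type. The remaining 95 genes did not reach this level in at least one type, and 43 of them reached it in neither. The 8 libraries of a type include LiCl libraries of an *RPS22B* intron-deletion strain and of cells sorted by GFP level. A gene could pass through those libraries alone, as *MET17* did with at most 1 read in each compared library.

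The high-glucose culture was wild type (WT) yeast in medium with 20% glucose, a hyperosmotic sugar concentration given as a single dose. The LiCl culture was WT yeast in YPD with LiCl, at a dose picked from a gradient for its growth inhibition (IC50 in the labels). The LiCl concentration of that sequenced culture is not given in the sources used here. WT cultures in 0.4 M NaCl, in 0.32 µg per ml myriocin, an inhibitor of sphingolipid synthesis, and in 0.85 µM fenpropimorph, an inhibitor of ergosterol synthesis, were used to place the levels. Every culture was re-inoculated every 8 h for 24 h. Elsewhere in the study's text the high-glucose culture is described as late exponential and the LiCl culture as mid-exponential. The glucose dose was not matched to LiCl in growth inhibition, so stressor, growth rate and growth stage cannot be told apart. Each RNA sample gave a polyadenylated (polyA) and a ribo-depleted library, read in pairs of 100 bp. With 1 library per culture and type, no difference can be checked against replicates and no p-value is given. The types share their RNA and are no biological replicates of each other. In bulk RNA, a level that is lower in every cell and a smaller share of cells with the transcript cannot be told apart.

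As background, glucose represses the genes that yeast needs for other carbon sources, for respiration and for storage, and induces low-affinity hexose transporters and fermentative enzymes. Slow growth and many stresses raise the general stress response, whose activators Msn2 and Msn4 bind the stress response element in promoters, and lower the genes for making ribosomes. Lithium is a toxic cation that yeast exports with sodium pumps and that inhibits phosphoglucomutase, inositol monophosphatase and the sulfur enzyme Met22. High external sugar or salt is countered with the osmolyte glycerol.

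Genes outside RP differed widely between the cultures, and more of the large differences were towards lower levels in high glucose. A log2 change is the log2 ratio of high glucose over LiCl after TMM scaling, with 0.5 reads added to each count, so a positive value means higher in high glucose. In polyA RNA 962 of 6503 measured genes were at least 2-fold higher in high glucose, where 16.2% of all genes measured were, RP genes included. Another 1274 were at least 2-fold lower, with 19.2% over all genes. In ribo-depleted RNA 997 of 6479 genes were at least 2-fold higher, with 16.9% over all genes. A further 1208 were at least 2-fold lower there, with 18.3% over all genes. In the same direction in both types, 707 of the 6465 genes were higher, beside 12.4% of all genes, and 992 were lower, beside 15.0% of all genes. These 707 and 992 genes are called higher and lower in what follows. Counts in gene groups are to be read beside these 12.4% and 15.0%. The median log2 change of the genes outside RP was −0.04 in polyA and −0.06 in ribo-depleted RNA.

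The tail was longer on the lower side. At least 8-fold in both types, 15 genes were higher and 173 were lower. At least 32-fold, 0 were higher and 47 were lower. These counts leave out RP genes, and the same counts over all genes are not given at these limits. At 2-fold in both types, 818 genes were higher and 993 lower with RP genes included. Of the genes past 2-fold in polyA RNA and measured in both types, 73.7% of the higher and 79.0% of the lower ones were past it in ribo-depleted RNA too. Only 6 genes were past 2-fold in opposite directions, among them *YLR154W-B*, a small open reading frame in the ribosomal DNA locus, named after its values were seen. Of the 1699 called genes, 150 share at least 50% of their CDS with another CDS and 63 repeat at least 50% of their sequence elsewhere in the genome. The same shares over all genes are not given here. Reads of overlapping or repeated genes may be split or shared, because the handling of strand and of multi-mapping reads is not given in the sources used here.

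**Figure D1:**
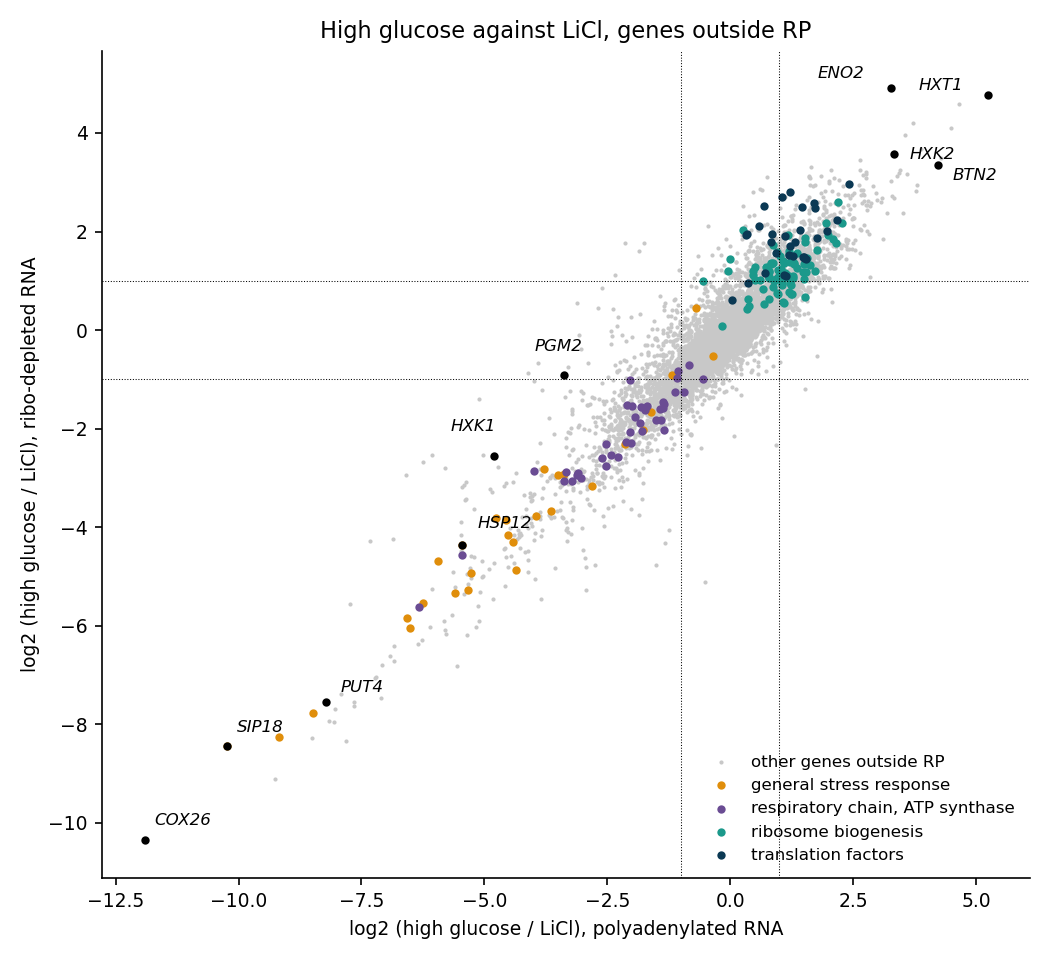
Log2 change between high glucose and LiCl for each of the 6465 genes outside RP, in polyA RNA (x axis) and ribo-depleted RNA (y axis), with 4 gene groups coloured and dotted lines at 2-fold. The general stress response and respiratory genes lie to the lower left, ribosome biogenesis and translation factor genes to the upper right, and *COX26* lies at −11.91 and −10.35.

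CDS reads totalled 33700445 in the high-glucose and 48277015 in the LiCl polyA library. The ribo-depleted libraries had 45315420 reads in high glucose and 53234402 in LiCl. Of the strain markers, *LEU2*, *URA3* and *MET17* had at most 1 read in each of these libraries, while *HIS3*, *LYS2*, *TRP1* and *ADE2* were expressed in both cultures. *ADE2*, also of purine synthesis, was called lower, with 281 CPM (TMM-scaled counts relative to library size) in high glucose and 742 CPM in LiCl in polyA RNA, and 138 and 315 CPM in ribo-depleted RNA. The a-specific genes, which mark MATa cells, were high in both. *STE2*, the alpha-factor receptor, had 827 CPM in high glucose and 441 CPM in LiCl in polyA RNA. Of the 6 a-specific genes *MFA1*, *BAR1* and *AGA2* were called higher, with 2.16, 2.52 and 1.67 in polyA RNA, and the mating-type endonuclease gene *HO* had 57.1 CPM in high glucose and 3.86 CPM in LiCl. The alpha-factor gene *MF(ALPHA)1* had 0.404 CPM in high glucose and 32.3 CPM in LiCl in polyA RNA, and 0.0987 and 8.69 CPM in ribo-depleted RNA. The other 3 WT polyA libraries had 0.209 to 0.253 CPM, so the LiCl library stood apart for this gene. Of the 4 alpha-specific genes, 2 were called lower in high glucose. The other was *STE3*, with 2.13 CPM in high glucose and 8.44 CPM in LiCl in polyA RNA. LiCl did not stand apart there, with 1.32 CPM in NaCl, 13.9 CPM in myriocin and 13.1 CPM in fenpropimorph. Together the 4 genes took 0.0059% of polyA CDS reads in high glucose and 0.0107% in LiCl. Their part in the other differences was not tested.

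Hexose transporters and sensors were mostly lower in high glucose than in LiCl, while the low-affinity transporters *HXT1* and *HXT3* were much higher than in LiCl. Of the 22 genes, 3 were higher and 12 lower, and the median log2 change was −1.36 in polyA and −1.08 in ribo-depleted RNA. *HXT1*, the low-affinity transporter induced by high glucose, had 601 CPM in high glucose and 15.9 CPM in LiCl in polyA RNA, and 365 and 13.3 CPM in ribo-depleted RNA. Its log2 change of 5.24 (95% counting interval 5.14 to 5.34) in polyA and 4.77 in ribo-depleted RNA was the largest increase by the smaller value of the types. *HXT3*, another low-affinity transporter, had 510 CPM in high glucose and 80.3 CPM in LiCl in polyA RNA. The NaCl, myriocin and fenpropimorph cultures had more *HXT3* than high glucose, at 1004.5, 1813 and 4401 CPM. The third higher gene was *STD1*, a regulator of the glucose sensing pathway, named here after its values were seen.

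On the other side stood *HXT5*, a transporter of slowly growing cells, and the high-affinity pair *HXT6* and *HXT7*. *HXT5* had 16.1 CPM in high glucose and 908 CPM in LiCl in polyA RNA, and 11.3 and 679 CPM in ribo-depleted RNA, with log2 changes of −5.82 and −5.91. *HXT7* had 26.8 CPM in high glucose and 1039 CPM in LiCl in polyA RNA. *HXT6* was alike at −5.21 and −4.61, but 95% of its sequence repeats elsewhere, chiefly in *HXT7*, so their reads cannot be assigned with certainty.

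Glycolytic genes split by isoenzyme. Of 23 genes of glycolysis and fermentation, 9 were higher and 3 lower, and the median log2 change was 0.68 in polyA and 1.69 in ribo-depleted RNA. *HXK2*, the main hexokinase of glucose-grown cells, had 995 CPM in high glucose and 98.3 CPM in LiCl in polyA RNA, and 699.9 and 59.0 CPM in ribo-depleted RNA. *ENO2*, the glucose-induced enolase, had 7332 CPM in high glucose and 761 CPM in LiCl in polyA RNA, and 4507 and 150 CPM in ribo-depleted RNA. The NaCl, myriocin and fenpropimorph polyA libraries had more of both, at 1210.5 to 2277 CPM for *HXK2* and 9246 to 13251 CPM for *ENO2*. In ribo-depleted RNA this held for *HXK2* but not for *ENO2*, at 2805 to 4299 CPM. The other hexose kinases were lower in high glucose than in LiCl.

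*HXK1*, the hexokinase repressed by glucose, had 21.1 CPM in high glucose and 587 CPM in LiCl in polyA RNA, and 76.0 and 445 CPM in ribo-depleted RNA. The size of its change differed between the types, at −4.79 in polyA and −2.55 in ribo-depleted RNA. *GLK1*, the glucokinase, had log2 changes of −3.93 and −2.67. *PDC6*, a minor pyruvate decarboxylase, had −3.47 and −3.08. Glycolytic transcripts summed to 7.33% of CDS reads in high glucose and 5.24% in LiCl in polyA RNA, and to 5.32% and 1.46% in ribo-depleted RNA.

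Most nuclear genes of gluconeogenesis, fatty acid breakdown and respiration were called lower in high glucose, and 0 of them higher. In the gluconeogenesis and glyoxylate cycle group 12 of 15 genes were lower and 0 higher, with medians of −2.56 in polyA and −2.75 in ribo-depleted RNA. *PCK1*, phosphoenolpyruvate carboxykinase, had 8.48 CPM in high glucose and 1911 CPM in LiCl in polyA RNA, and 3.18 and 1029 CPM in ribo-depleted RNA. Its log2 change was −7.81 (−7.98 to −7.65) and −8.33 (−8.58 to −8.08). *FBP1*, fructose-1,6-bisphosphatase, had lower levels in both media, with 6.72 CPM in high glucose and 38.1 CPM in LiCl in polyA RNA. *IDP2*, the cytosolic isocitrate dehydrogenase, had log2 changes of −4.52 and −4.81. The 3 genes not called were *ADH2*, *SUC2* and *MDH2*. *ADH2*, alcohol dehydrogenase of ethanol-grown cells, had 269 CPM in high glucose and 209 CPM in LiCl in polyA RNA. The NaCl, myriocin and fenpropimorph polyA libraries had 343 to 424 CPM. As 14% of *ADH2* repeats elsewhere in the genome, some of these reads may belong to another gene. *SUC2*, invertase, had 1.09 in polyA and −0.23 in ribo-depleted RNA, and *MDH2*, cytosolic malate dehydrogenase, had −0.06 and −0.45.

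Of 16 genes of peroxisomal beta-oxidation, 10 were lower and 0 higher, and 3 had positive values in polyA RNA. *POT1*, the thiolase, had 2.51 CPM in high glucose and 112 CPM in LiCl in polyA RNA. *CAT2*, carnitine acetyltransferase, had log2 changes of −2.93 and −4.81. The peroxisomal ATP carrier *ANT1* had 0.91 and 0.86, under the 2-fold limit.

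In the TCA cycle 13 of 16 genes were lower and 0 higher, and all 16 had negative log2 changes in both types. *CIT1*, mitochondrial citrate synthase, had 113 CPM in high glucose and 1139 CPM in LiCl in polyA RNA, and 114 and 519 CPM in ribo-depleted RNA. *SDH2*, the iron-sulfur subunit of succinate dehydrogenase, had log2 changes of −3.82 and −4.05. Its partner *SDH1*, the flavoprotein subunit, had −3.26 and −3.08.

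The nuclear genes of the respiratory chain and ATP synthase were as uniform. Of 39 genes 34 were lower and 0 higher, and all 39 changes were negative in both types, with medians of −2.0 and −1.89. *COX5A*, the aerobic subunit of cytochrome c oxidase, had 98.8 CPM in high glucose and 352 CPM in LiCl in polyA RNA. Its hypoxic isoform *COX5B* had −0.83 and −0.71 and was not called. *NDE2*, an external NADH dehydrogenase, had 2.74 CPM in high glucose and 221 CPM in LiCl in polyA RNA. *CYC7*, a cytochrome c isoform, had log2 changes of −5.46 and −4.57.

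*COX26*, a small subunit of the respiratory supercomplex, had the lowest value of all genes ranked. It had 0.115 CPM in high glucose and 500.2 CPM in LiCl in polyA RNA, and 0.0987 and 145 CPM in ribo-depleted RNA. Only 4 reads were counted in each high-glucose library, so the interval of −11.91 runs between −13.24 and −10.58. The mitochondrially encoded genes need separate care, since polyA selection hardly captures them. Of 8 genes only *COX1* and *COB* were measured in both types. In ribo-depleted RNA *COX1*, of which 61% overlaps other reading frames, had 484 CPM in high glucose and 1296 CPM in LiCl.

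Reserve carbohydrate genes and the general stress response were lower by several-fold as groups, and the general stress response had the lowest median of all groups in both types. Of 18 genes of trehalose and glycogen metabolism 13 were lower and 1 higher, with medians of −2.84 and −2.25. *TPS1*, trehalose-6-phosphate synthase, had 182 CPM in high glucose and 767 CPM in LiCl in polyA RNA, and 199 and 631 CPM in ribo-depleted RNA. *GSY2*, glycogen synthase, had log2 changes of −4.23 and −3.80, and *GDB1*, the glycogen debranching enzyme, had −4.15 and −3.63. The higher gene was *PGM1*, the minor phosphoglucomutase, at 122 CPM in high glucose and 26.1 CPM in LiCl in polyA RNA. *TPS3*, a regulatory subunit of trehalose synthesis, had 0.23 and 1.17 and was not called.

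Of the 28 general stress response genes 25 were lower and 0 higher, and the medians were −4.47 and −4.01. These transcripts made up 0.403% of CDS reads in high glucose and 6.41% in LiCl in polyA RNA, and 0.232% and 2.22% in ribo-depleted RNA. *HSP12*, a membrane-protecting protein, had 333 CPM in high glucose and 14516 CPM in LiCl in polyA RNA, and 171 and 3532 CPM in ribo-depleted RNA. *HSP26*, a small heat shock protein, had 408 CPM in high glucose and 9322 CPM in LiCl in polyA RNA. *CTT1*, cytosolic catalase, had 41.7 CPM in high glucose and 2013 CPM in LiCl in polyA RNA, with log2 changes of −5.59 (−5.67 to −5.52) and −5.34 (−5.41 to −5.27).

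The ends of this group were further apart. *SIP18*, a phospholipid-binding protein of desiccated cells, had 1.53 CPM in high glucose and 1854 CPM in LiCl in polyA RNA. In ribo-depleted RNA only 2 reads were counted in high glucose, which gives −8.45 with an interval of −10.24 to −6.66. *GRE1*, a hydrophilin, had 5.34 CPM in high glucose and 3098 CPM in LiCl in polyA RNA, with log2 changes of −9.18 and −8.26. *DDR2*, a stress protein first found after DNA damage, had 4.99 CPM in high glucose and 1786 CPM in LiCl in polyA RNA, with −8.48 and −7.78.

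The stress response element has the letters AGGGG, or CCCCT when read on the other strand. Windows around a match are shown for 4 genes of this group to let the element be seen in its promoter context, in the R64 genome, 5′ to 3′ on the strand of the gene, with the matching letters in capitals. The *DDR2* window lies at chrXV:231914-231942 on the minus strand, 170 bases before the start codon, and its promoter holds 4 matches. That of *SIP18* lies at chrXIII:610635-610663 on the plus strand, 364 bases before the start codon, and that of *CTT1* at chrVII:654489-654517 on the plus strand, 128 bases before it. The *HSP12* window lies at chrVI:107054-107082 on the plus strand, 185 bases before the start codon, in a promoter with 5 matches.
DDR2: tgtcttttctcaCCCCTtatgggacatca
SIP18: atgctttcggtaCCCCTttaagacaacta
CTT1: catttatcgtatCCCCTactgctacacgt
HSP12: gttccggtcgtcCCCCTcttgatctgaaa

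The other genes among the 12 lowest had varied roles. *SPG4*, a gene needed in stationary phase, had 0.606 CPM in high glucose and 382 CPM in LiCl in polyA RNA, with log2 changes of −9.27 and −9.11. *PIR3*, a cell wall glycoprotein, had 4.73 CPM in high glucose and 1728 CPM in LiCl in polyA RNA, and 2.79 and 874 CPM in ribo-depleted RNA. *FMP16*, a mitochondrial protein of unknown function, had −8.16 and −7.94. *RCK1*, a protein kinase of the oxidative stress response, had −7.66 and −7.63.

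*EGO4*, a small protein of little-known function, had 6.32 CPM in high glucose and 1669.9 CPM in LiCl in polyA RNA. *YOR186W* and *YOR186C-A* complete the 12, with −8.05 and −7.66 in polyA RNA. These reading frames overlap on opposite strands, so their reads cannot be told apart here.

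**Figure D2:**
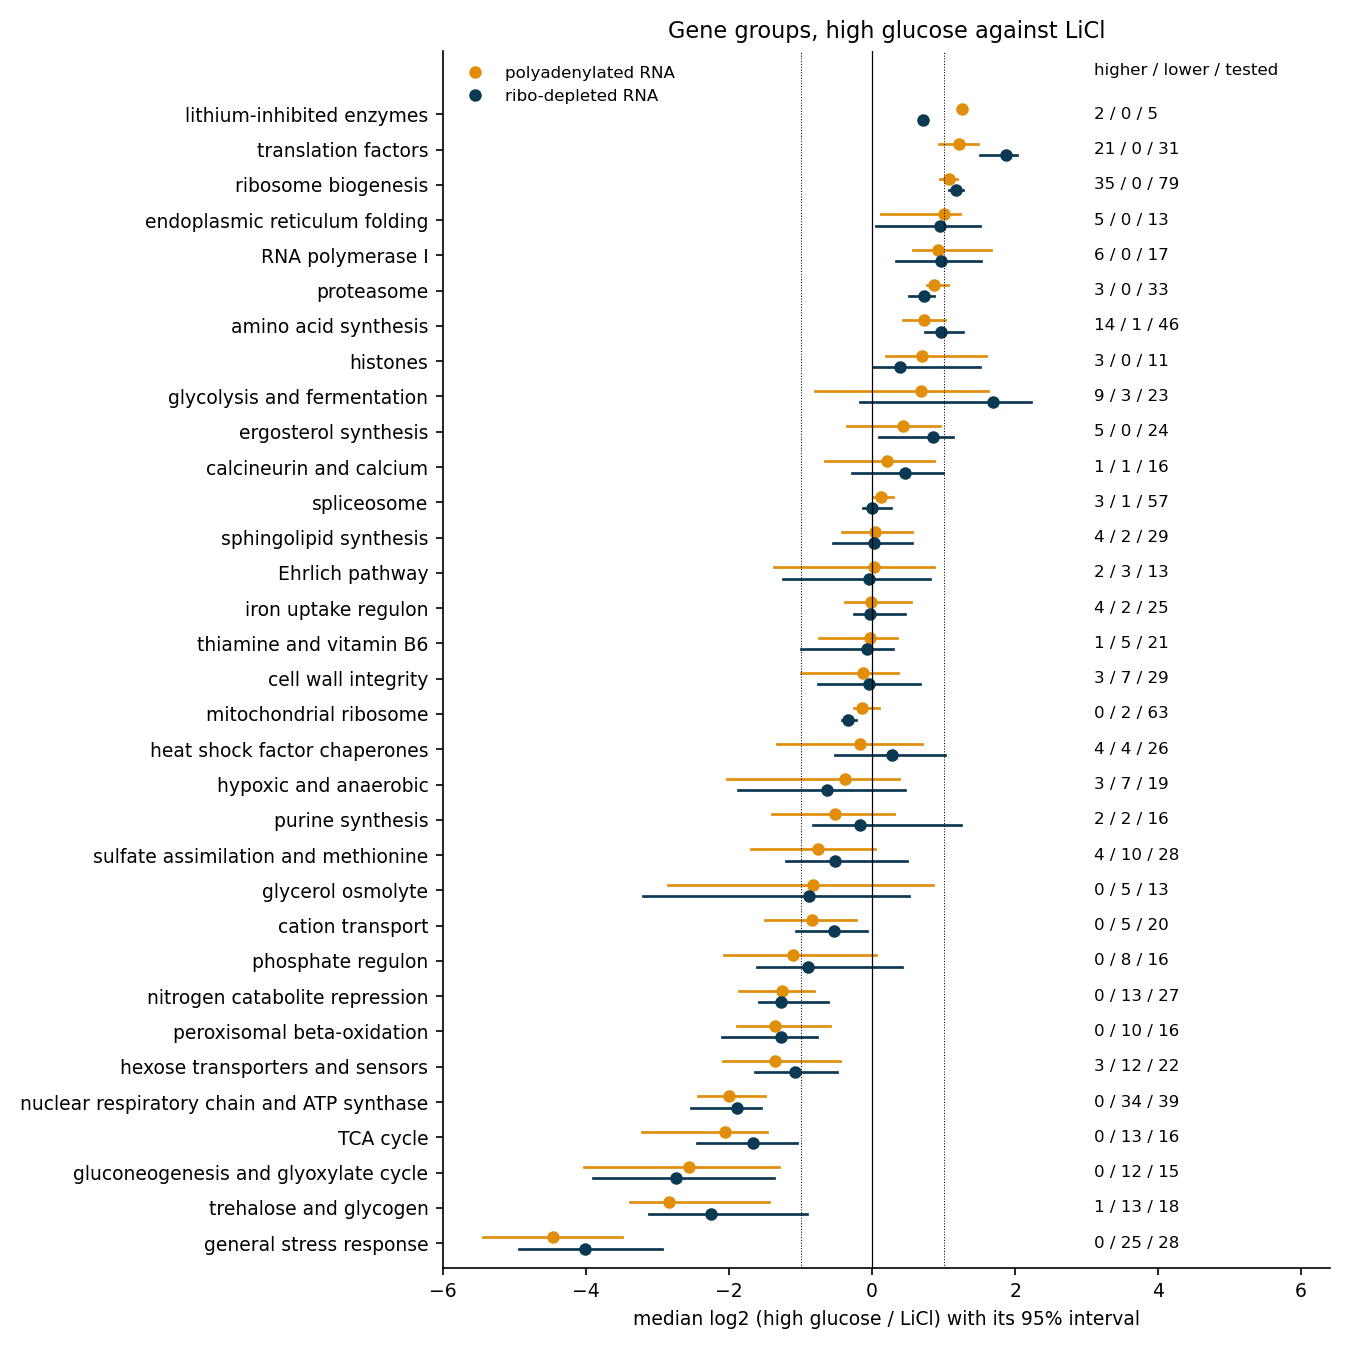
Median log2 change between high glucose and LiCl for 33 gene groups (points) in polyA and ribo-depleted RNA, with the 95% order-statistic interval of the median over genes where the group is large enough (lines). The numbers at the right are genes called higher, called lower and measured, for example 21, 0 and 31 for translation factors and 0, 25 and 28 for the general stress response.

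No gene of the glycerol and cation transport groups, with 13 and 20 genes, was called higher in high glucose than in LiCl. Over all genes 12.4% were higher and 15.0% lower, so 0 in groups of this size is not far from that share. Of 13 genes of glycerol metabolism 5 were lower and 0 higher, with medians of −0.83 and −0.89. *GPD1*, the osmotically induced glycerol-3-phosphate dehydrogenase, had 284 CPM in high glucose and 1547 CPM in LiCl in polyA RNA, and 231 and 701 CPM in ribo-depleted RNA. *STL1*, the glycerol importer, had 8.62 CPM in high glucose and 124 CPM in LiCl in polyA RNA. *GCY1*, a glycerol dehydrogenase, had log2 changes of −4.56 and −4.60. The glycerol phosphatases stood on the other side of 0, with 0.98 and 0.63 for *GPP1* and 1.07 and 0.87 for *GPP2*, and neither was called.

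In cation transport 5 of 20 genes were lower and 0 higher, with medians of −0.83 and −0.53. *ENA1*, the sodium and lithium export pump, had 261 CPM in high glucose and 1546 CPM in LiCl in polyA RNA, and 287 and 1010.5 CPM in ribo-depleted RNA. As 89% of *ENA1* repeats in its neighbours *ENA2* and *ENA5*, these values stand for the cluster. *PMA2*, a minor proton pump, had −2.65 and −1.77. The potassium transporter *TRK1* had 0.12 and 0.33, and the phosphatase *PPZ1*, which restrains potassium uptake, had 0.19 and 0.33.

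Among the 5 genes of lithium-inhibited enzymes *PGM1* and the inositol monophosphatase *INM1* were higher and none was lower. *INM1* had 164 CPM in high glucose and 42.0 CPM in LiCl in polyA RNA, and 38.2 and 14.3 CPM in ribo-depleted RNA. *PGM2*, the major phosphoglucomutase, had −3.38 in polyA but −0.92 in ribo-depleted RNA and was not called. *MET22*, the phosphatase of sulfur metabolism, had 1.25 and 0.72, and *INM2* had −0.43 and −0.46.

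Of 16 calcineurin and calcium genes 1 was higher and 1 lower, beside 12.4% and 15.0% over all genes. In a group of this size these counts are not far from those shares. *RCN1*, a calcineurin regulator, had 56.6 CPM in high glucose and 21.8 CPM in LiCl in polyA RNA. *CMK1*, a calmodulin-dependent kinase, had −1.18 and −1.89. *PMC1*, the vacuolar calcium pump, had −1.14 and −0.77, *CRZ1*, the transcription factor of the pathway, had 0.14 and 1.23, and *RCN2* had 0.54 and 0.40.

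Of 26 chaperone genes of the heat shock factor group 4 were higher and 4 lower, close to the 12.4% higher and 15.0% lower over all genes, and the medians were −0.17 in polyA and 0.27 in ribo-depleted RNA. *BTN2*, a sorting factor for misfolded proteins, had 311 CPM in high glucose and 16.6 CPM in LiCl in polyA RNA, and 111 and 10.8 CPM in ribo-depleted RNA. *FES1*, a nucleotide exchange factor of Hsp70, had 338 CPM in high glucose and 62.8 CPM in LiCl in polyA RNA. *SSA3*, an Hsp70 of stressed and stationary cells, had 68.1 CPM in high glucose and 1306 CPM in LiCl in polyA RNA. The mitochondrial chaperone *HSP78* had −2.14 and −1.33.

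In endoplasmic reticulum folding 5 of 13 genes were higher and 0 lower. *PDI1*, protein disulfide isomerase, had 1065 CPM in high glucose and 455 CPM in LiCl in polyA RNA, and 1168 and 409 CPM in ribo-depleted RNA. *SCJ1*, a luminal cochaperone, had 1.98 and 1.85. *KAR2*, the luminal Hsp70, lay close to the limit, with 1.0 and 0.95. Of 33 proteasome genes only *PRE5*, *RPN1* and *RPT1* were called higher and 0 lower, but 31 of the 33 had positive values in each type, and the medians were 0.86 and 0.73. Their activator *RPN4*, which is counted among the 33, had −0.79 and −0.69.

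Of 29 genes of the cell wall integrity group 3 were higher and 7 lower, against 12.4% higher and 15.0% lower over all genes. *UTR2*, a chitin transglycosylase, had 474 CPM in high glucose and 43.8 CPM in LiCl in polyA RNA, and *CIS3*, a Pir protein, had 796 and 197 CPM. Its relative *PIR3*, given above, was among the lowest genes, and *MTL1*, a wall sensor, had −2.47 and −2.27. Of 19 hypoxic and anaerobic genes 3 were higher, close to the share over all genes, and 7 were lower. *HEM13*, a heme synthesis enzyme, had 199.98 CPM in high glucose and 46.3 CPM in LiCl in polyA RNA, and the mannoprotein gene *TIR3* had 1.60 and 2.01. The related *TIR4* had −2.08 and −2.09.

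Lipid synthesis differed less. In ergosterol synthesis 5 of 24 genes were higher and 0 lower, among them *ERG6*, sterol methyltransferase, with 476 CPM in high glucose and 98.3 CPM in LiCl in polyA RNA. *MVD1*, of the mevalonate pathway, had 1.83 and 2.02. In sphingolipid synthesis 4 of 29 genes were higher and 2 lower, beside 12.4% and 15.0% over all genes, with medians of 0.03 in both types. The fatty acid elongases *ELO2* and *ELO3* had 2.20 and 2.47 in polyA RNA. The mannosyltransferase subunit gene *SUR1* had −1.74 and −1.12, and the ceramidase gene *YPC1* had −1.79 and −1.98.

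Nutrient regulons were lower or mixed. Of 16 genes of the phosphate regulon 8 were lower and 0 higher. *PHO84*, the high-affinity phosphate transporter, had 213 CPM in high glucose and 1013 CPM in LiCl in polyA RNA, and 147 and 450.1 CPM in ribo-depleted RNA. *PHO89*, the sodium-coupled phosphate transporter, had −3.56 and −3.0, and *SPL2*, a regulator of low-affinity phosphate uptake, had −2.83 and −2.98. The vacuolar polyphosphate genes *VTC2* and *VTC4* had positive values and were not called. *VTC2* had 0.50 in polyA and 0.86 in ribo-depleted RNA, and *VTC4* had 0.57 and 1.19.

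Of 27 genes under nitrogen catabolite repression 13 were lower and 0 higher, and all 27 values were negative in both types. *PUT4*, the proline permease, had 1.36 CPM in high glucose and 408 CPM in LiCl in polyA RNA, and 0.790 and 149 CPM in ribo-depleted RNA. *PUT1*, proline oxidase, had −4.58 and −4.43. *MEP2*, the high-affinity ammonium permease, had 29.5 CPM in high glucose and 142 CPM in LiCl in polyA RNA.

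In the Ehrlich pathway, which turns amino acids into fusel alcohols, 2 of 13 genes were higher and 3 lower. Over all genes the shares were 12.4% and 15.0%. *ARO10*, a decarboxylase, had 139 CPM in high glucose and 849 CPM in LiCl in polyA RNA. *ARO9*, an aromatic aminotransferase, had 158 CPM in high glucose and 596 CPM in LiCl, and their activator *ARO80* had −1.38 and −1.44. The biosynthetic aminotransferases were on the opposite side, with 619 CPM in high glucose and 154 CPM in LiCl for *ARO8*, and 617 and 211 CPM for *BAT1*.

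Amino acid synthesis was higher for many genes. Of 46 genes 14 were higher and 1 lower, with medians of 0.73 and 0.96. *ASN2*, asparagine synthetase, had 937 CPM in high glucose and 205 CPM in LiCl in polyA RNA, and 518 and 75.9 CPM in ribo-depleted RNA. *THR4*, threonine synthase, had 2.21 and 2.57. *LYS20*, homocitrate synthase, was the lower gene, at −1.43 and −1.22. *GCN4*, the activator of the pathway, had 1221 CPM in high glucose and 790.1 CPM in LiCl in polyA RNA, under the 2-fold limit.

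Of 28 sulfur genes 4 were higher, close to the share over all genes, and 10 were lower. *CYS3*, cystathionine gamma-lyase, had 758 CPM in high glucose and 121 CPM in LiCl in polyA RNA, and *SAH1*, which recycles adenosylhomocysteine, had 1.32 and 2.46. The lyase *STR3* had −3.20 and −3.65, and the methionine permease *MUP3* had −3.09 and −2.85. In the iron uptake regulon 4 of 25 genes were higher and 2 lower, beside 12.4% and 15.0% over all genes. The wall mannoprotein *FIT2* had −0.30 and −0.16. *FRE1*, a metal reductase, had 1.33 and 1.68, and *ISU1*, the scaffold of iron-sulfur clusters, had −2.07 and −2.06.

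Of 16 purine synthesis genes 2 were higher and 2 lower, close to the 12.4% and 15.0% over all genes. *IMD2*, an IMP dehydrogenase, had 2.61 and 2.94, and *MTD1*, of one-carbon metabolism, had −3.16 and −2.98. In the thiamine and vitamin B6 group 1 of 21 genes was higher and 5 lower. *THI80*, thiamine pyrophosphokinase, had 1.78 and 1.07, and *SNZ1*, a pyridoxine synthesis gene, had −1.77 and −1.47.

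In the groups for making ribosomes and proteins 0 genes were lower in high glucose, and the share called higher was above the 12.4% over all genes in each. Of 79 ribosome biogenesis genes 35 were higher and 0 lower, and 76 in polyA and all 79 in ribo-depleted RNA had positive values. The medians were 1.08 and 1.18. *NOP56*, a core protein of box C/D snoRNPs, had 1055 CPM in high glucose and 230 CPM in LiCl in polyA RNA, and 367 and 60.1 CPM in ribo-depleted RNA. *HAS1*, an RNA helicase of both ribosomal subunits, had 644 CPM in high glucose and 133 CPM in LiCl in polyA RNA. Of 17 RNA polymerase I genes 6 were higher and 0 lower, among them the subunit genes *RPC40* and *RPA43* with 1.55 and 1.67 in polyA RNA. The initiation factor genes *RRN3*, with −0.96 and −1.60, and *RRN10*, with −0.72 and −0.66, were negative in both types, and *RRN5*, with 0.09 and −0.17, in ribo-depleted RNA.

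Of 31 translation factor genes 21 were higher and 0 lower, the largest share of any group on the higher side, and all 31 values were positive in both types. The median was 1.21 in polyA and 1.87 in ribo-depleted RNA. *TEF4*, an elongation factor 1B subunit, had 1429 CPM in high glucose and 267 CPM in LiCl in polyA RNA, and 796 and 102 CPM in ribo-depleted RNA. *TIF11*, initiation factor 1A, had 2.18 and 2.23. These genes took 5.62% of CDS reads in high glucose and 3.46% in LiCl in polyA RNA, and 3.62% and 0.809% in ribo-depleted RNA.

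Mitochondrial ribosome genes did not follow the cytosolic ones. Of 63 genes 0 were higher and 2 lower, *RSM7* and *MRPS12*, and the medians were −0.14 and −0.33. Of 11 histone genes *HTA2*, *HTB2* and *HHO1* were higher and 0 lower, while *HTA1* had −0.94 and −0.90. Among 57 spliceosome genes 3 were higher and 1 lower, with medians of 0.12 and 0.00. *SNU13* and *PRP43*, which also serve in ribosome synthesis, had 2.36 and 1.69 in polyA RNA, and *MUD1*, a U1 snRNP protein, had −1.43 and −1.75.

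The PAC element, with the letters GATGAG, is a motif of ribosome biogenesis promoters. It is shown for 3 genes of that group in the R64 genome, with the match nearest the start codon in capitals. The *NOP56* window lies at chrXII:545958-545987 on the plus strand, 121 bases before the start codon. That of *HAS1* lies at chrXIII:851675-851704 on the minus strand, 95 bases before it, and that of *NUG1*, a GTPase of large subunit export chosen for display only, at chrV:162613-162642 on the plus strand, 92 bases before it. Each of these promoters holds 2 matches. In *HAS1* and *NUG1* the other match overlaps the one in capitals, ends on its first base and is otherwise left in lower case.
NOP56: atttttttgagtGATGAGatgggaaatgaa
HAS1: ctttagcgatgaGATGAGattttatagtgt
NUG1: gcgaggcgatgaGATGAGctaattatatca

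The share of promoters with a stress response element differed with the direction of the change. In the 500 bases before the start codon, AGGGG was found on either strand in 33.7% of 6664 promoters. It was found in 174 of 707 promoters of higher genes (24.6%), in 548 of 986 promoters of lower genes (55.6%) and in 31.0% of 4764 promoters of genes that were neither. For genes at least 8-fold lower in both types the share was 67.6% of 173, and for the general stress response group 85.7% of 28. At least 2 matches were in 21.1% of the promoters of lower genes and in 8.06% of all promoters.

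GATGAG was found in 34.9% of promoters of higher genes, 24.3% of those of lower genes and 27.9% of all promoters. In the ribosome biogenesis group it was in 75 of 79 promoters (94.9%). The Gcn4 motif TGACTC was in 11.6% of promoters of higher and 14.1% of lower genes, with 13.0% over all. The Pho4 motif CACGTG, which reads the same on both strands, was in 6.08% and 7.10%, with 5.99% over all. The GATA motif GATAAG was in 19.4% and 24.8%, with 22.6% over all. These are shares of matching letters, and windows of neighbouring genes can overlap and hold coding sequence. The general stress response and ribosome biogenesis groups were listed with earlier results of these data known, so their shares are no independent evidence.

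**Figure D3:**
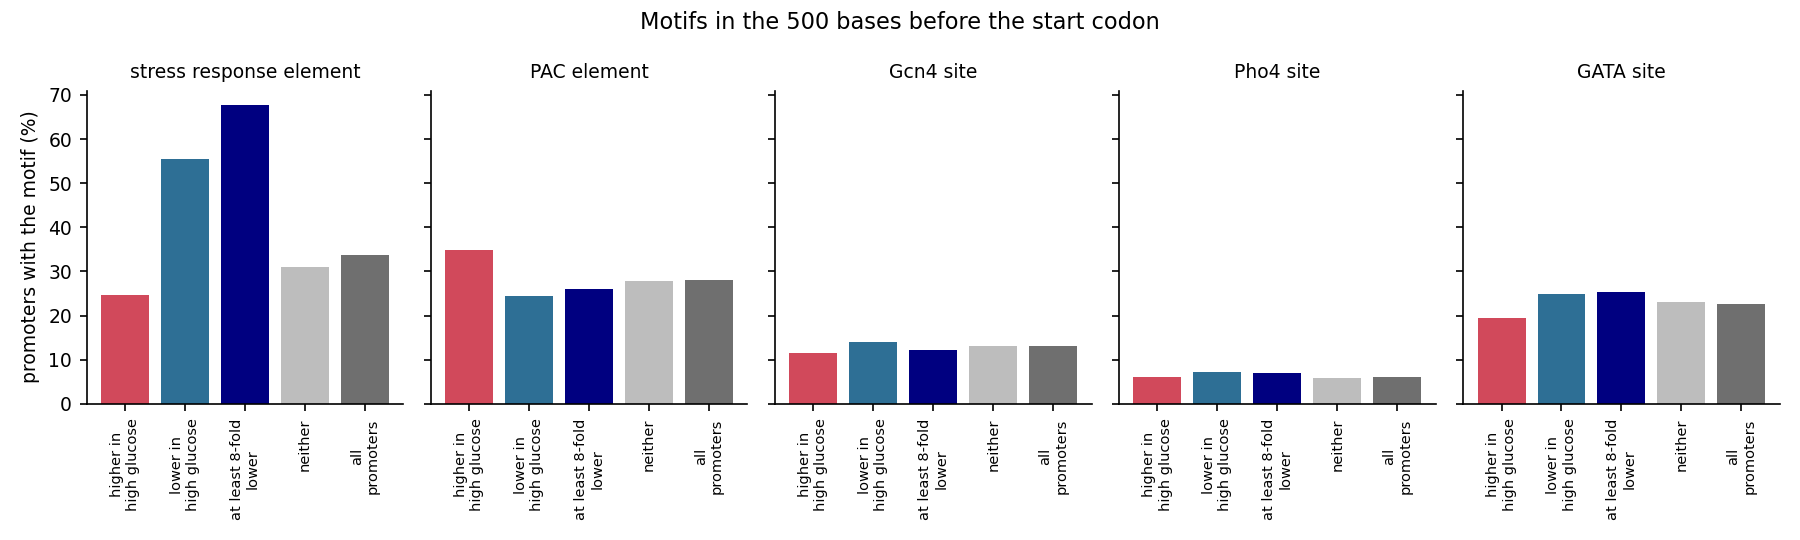
Share of promoters (%, 500 bases before the start codon, both strands) with each of 5 motifs, for genes higher and lower in high glucose than in LiCl, the subset at least 8-fold lower, genes that were neither, and all promoters. The stress response element ranges between 24.6% of higher genes and 67.6% of genes at least 8-fold lower, while the Gcn4 and Pho4 motifs stay near their shares over all promoters.

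The highest genes outside the groups had varied roles. *YOL014W*, of unknown function, had 109 CPM in high glucose and 4.33 CPM in LiCl in polyA RNA, and 44.8 and 1.85 CPM in ribo-depleted RNA. *ARI1*, an aldehyde reductase, had 173 CPM in high glucose and 13.0 CPM in LiCl in polyA RNA. *SCW10*, a cell wall glucanase, had 1029 CPM in high glucose and 93.4 CPM in LiCl in polyA RNA, and *TOS6*, a predicted wall protein, had log2 changes of 3.55 and 3.95. *YDL085C-A*, a small reading frame, had 4.29 and 3.49. *IRC7*, a cysteine beta-lyase, had 3.59 and 3.18. *FUS1*, which acts in cell fusion during mating, had 133 CPM in high glucose and 12.7 CPM in LiCl in polyA RNA.

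Among the called genes, the LiCl level lay outside the range of the other WT cultures more often than the high-glucose level. The genes were called on these same LiCl and high-glucose values, which raises such shares for either culture. The same shares over all genes were not counted. Of the 707 genes called higher, 622 (88.0%) had LiCl levels under the 3 other cultures in both library types, and 251 (35.5%) were at least 2-fold under them. The high-glucose level lay above all 3 for 228 (32.2%) and at least 2-fold above for 8. Of the 992 genes called lower, the LiCl level lay above the 3 others for 855 (86.2%) and at least 2-fold above for 506 (51.0%). The high-glucose level lay below them for 273 (27.5%) and at least 2-fold below for 35. *HXT1*, with 601 CPM in high glucose and 15.9 CPM in LiCl in polyA RNA, had 1684 CPM in NaCl, 376 CPM in myriocin and 449 CPM in fenpropimorph. *PCK1*, with 8.48 CPM in high glucose and 1911 CPM in LiCl, had 9.04 CPM in NaCl, 12 CPM in myriocin and 30.7 CPM in fenpropimorph. For both genes the high-glucose level lay within or next to the range of the 3 cultures and the LiCl level outside it. General stress response transcripts took 0.403% of polyA CDS reads in high glucose, against 0.0963% to 0.464% in these 3 cultures.

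Fewer genes set high glucose apart from the other 4 WT cultures. With a mean of at least 50 reads in both types, 8 genes were at least 2-fold above them and 26 at least 2-fold below. Those not named above were chosen after their values were seen. *BTN2* had 311 CPM in high glucose, against 12.9 to 58.9 CPM in the NaCl, myriocin and fenpropimorph polyA libraries, and *FES1* had 338 CPM in high glucose, against 89.2 to 123 CPM in those libraries. *URA2*, the first enzyme of pyrimidine synthesis, had 2039 CPM in high glucose and 647 CPM in LiCl in polyA RNA, and 7240 and 1278 CPM in ribo-depleted RNA, with 563 to 606 CPM in the 3 other polyA libraries. *GIC2*, an effector of Cdc42, had 505 CPM in high glucose and 143 CPM in LiCl, with 113 to 136 CPM in the others, and *LYS1*, saccharopine dehydrogenase, had 186 CPM in high glucose and 62.9 CPM in LiCl.

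The 26 genes below the other cultures had varied roles, and some are given as examples. *PHO89* had 3.52 CPM in high glucose, against 22.0 to 122 CPM in the 3 other polyA libraries. The acid phosphatase genes *PHO11* and *PHO12*, nearly identical to each other, had 20.7 and 23.7 CPM in high glucose and 60.6 and 67.1 CPM in LiCl. *HXT2*, a high-affinity hexose transporter, had 15.8 CPM in high glucose and 38.6 CPM in LiCl, with 179 to 579 CPM in the others. *NDE1*, an external NADH dehydrogenase, had 100.2 CPM in high glucose and 611 CPM in LiCl, and *PDH1*, of propionate metabolism, had 2.42 and 104 CPM. The sporulation genes *SPO73* and *SPO75* had 4.82 and 8.02 CPM in high glucose and 23.8 and 37.1 CPM in LiCl.

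**Figure D4:**
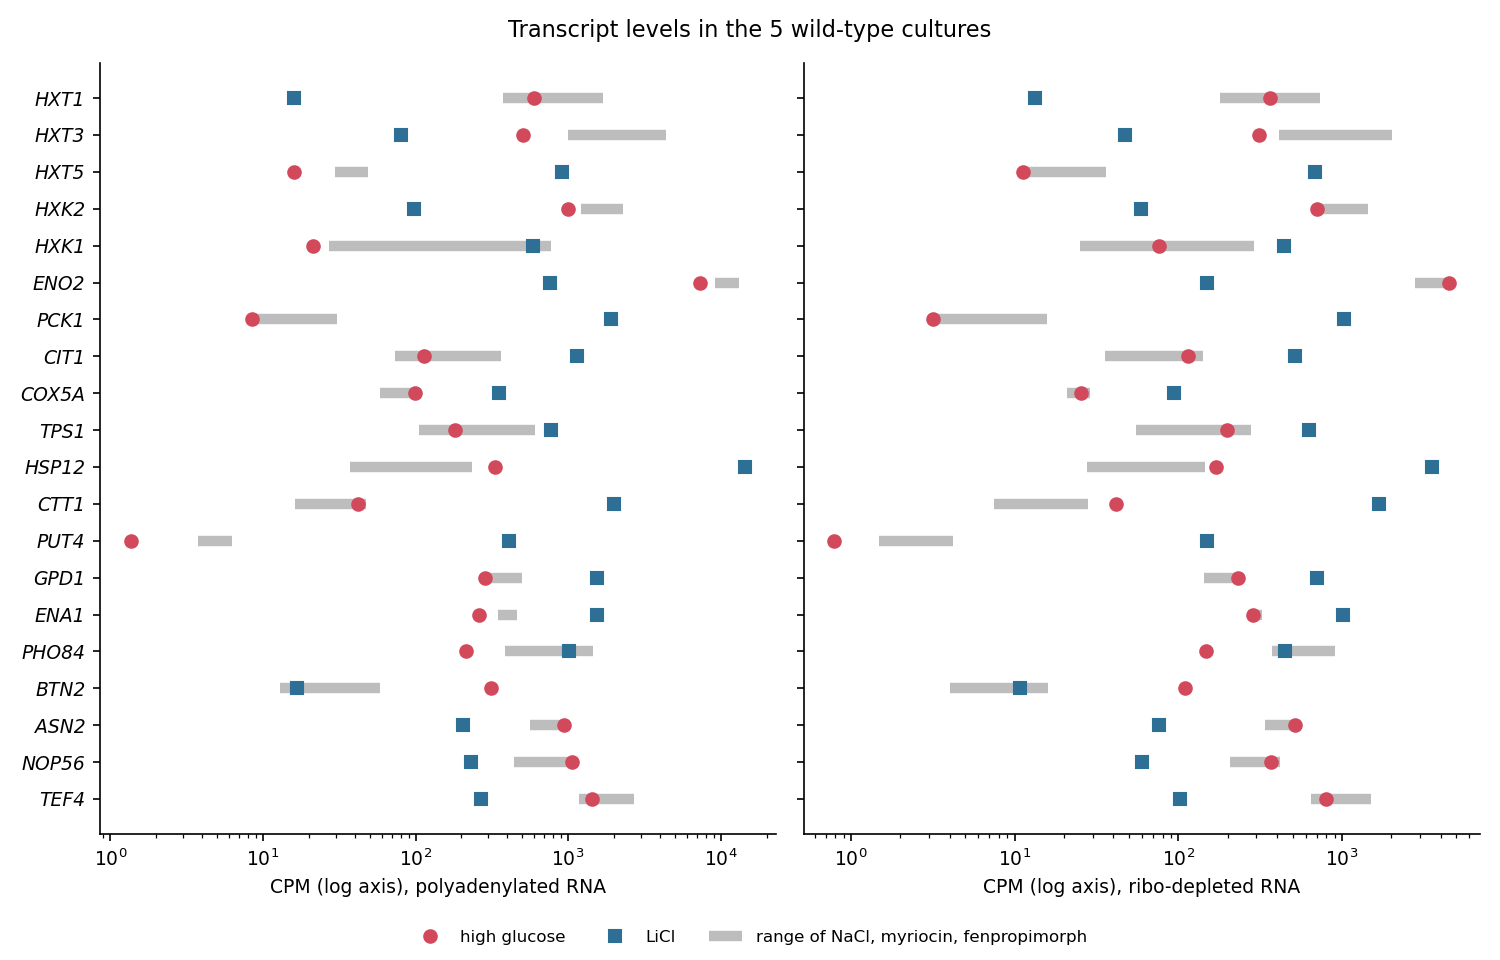
Levels of 20 named genes in CPM (log axis) in high glucose (circles) and LiCl (squares), with the range of the NaCl, myriocin and fenpropimorph cultures as a grey bar, in polyA (left) and ribo-depleted RNA (right). For *PCK1* the high-glucose level of 8.48 CPM in polyA RNA lies next to the grey bar and the LiCl level of 1911 CPM far above it, while for *BTN2* the high-glucose level of 311 CPM lies above the bar.

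Introns outside RP genes were retained less in high glucose. Retention is the read density of the intron over that of the CDS, as a percentage. Of 195 such introns, 11 of them in 5′ UTRs, 194 were measured in polyA and 184 in ribo-depleted RNA. Median retention was 8.00% in high glucose and 30.9% in LiCl in polyA RNA, and 18.4% and 45.1% in ribo-depleted RNA. The median log2 change in retention was −2.01 (95% order-statistic interval −2.24 to −1.66) in polyA and −1.18 (−1.35 to −1.01) in ribo-depleted RNA. In both types 96 of 184 introns were at least 2-fold lower and 0 higher. The same count with RP introns included is not given here, so these introns are not set against all introns. The other 3 cultures had medians of 14.3% to 17.4% in polyA RNA, between the high-glucose and LiCl values.

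Some introns are named as examples, after their values were seen. The intron of *YRA1*, an RNA export factor that controls its own splicing, had 6.63% in high glucose and 37.9% in LiCl in polyA RNA, and 30.2% and 86.0% in ribo-depleted RNA. The actin intron of *ACT1* had 0.491% in high glucose and 2.23% in LiCl in polyA RNA. The intron of *SUN4* in its 5′ UTR had 2.07% in high glucose and 17.6% in LiCl. *HAC1*, whose intron is removed by Ire1 and not by the spliceosome, had 111% in high glucose and 116% in LiCl in polyA RNA. The 5′ UTR intron of *MCR1* had higher retention in high glucose in polyA RNA, with 7.0% in high glucose and 2.50% in LiCl, while its CDS had a log2 change of −3.47.

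**Figure D5:**
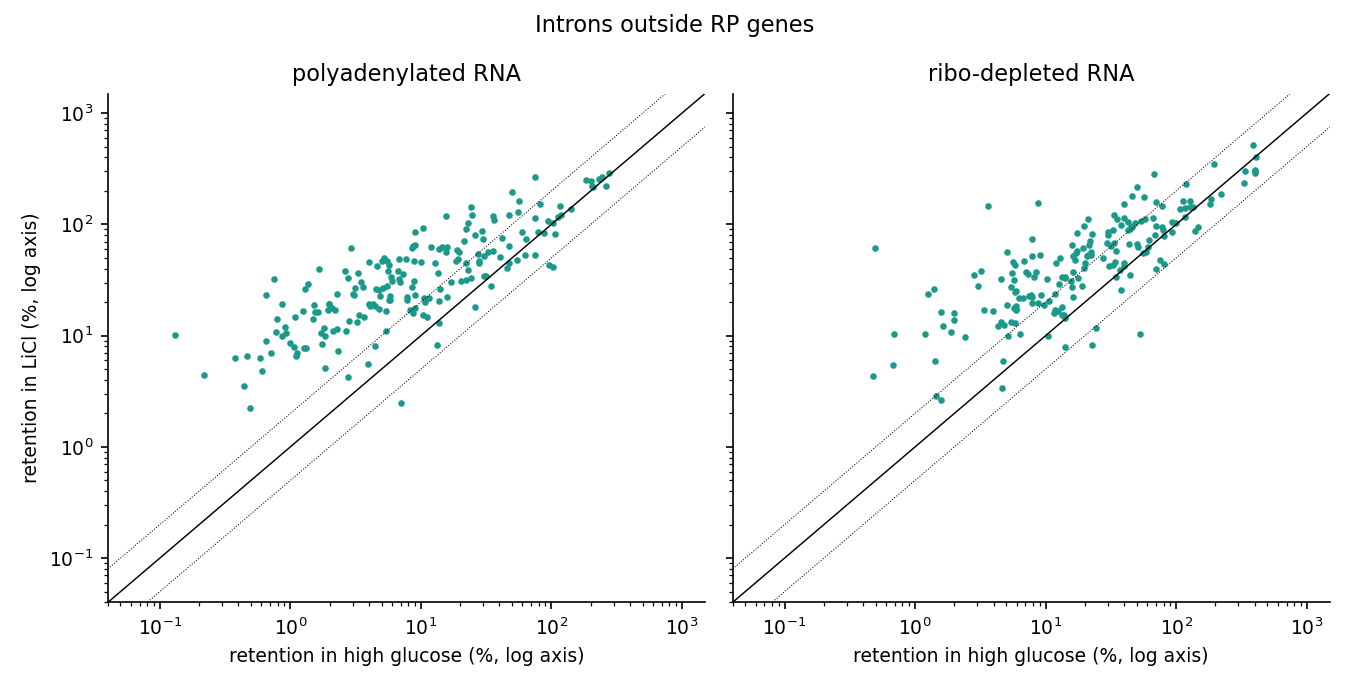
Retention of introns outside RP genes (%, log axes) in high glucose (x axis) and LiCl (y axis), in polyA (left) and ribo-depleted RNA (right). The solid line marks equal retention and the dotted lines a 2-fold difference, and most points lie above the solid line, with medians of 8.00% in high glucose and 30.9% in LiCl in polyA RNA.

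The library types differed with the length of the CDS. The median difference between the log2 change in ribo-depleted and in polyA RNA was −0.10 for the shortest genes (51 to 573 bp), −0.17 for those of 576 to 1116 bp, −0.03 for those of 1119 to 1809 bp and 0.15 for the longest (1812 to 14733 bp). The part of RNA length or quality in single genes was not tested. Chromosome medians of the nuclear genes lay between −0.25 and 0.17 in polyA RNA, with the called genes spread over all 16 chromosomes.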

How the data were processed

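Polyadenylated and ribo-depleted RNA of 8 *Saccharomyces cerevisiae* samples was sequenced by the authors (16 libraries, paired 100-bp reads), of which 4 are compared here and 6 more place the levels. The deposited values are raw counts of reads per CDS and per intron. The submitters' processing notes name cutadapt, HISAT2, featureCounts and the R64 genome. Versions, strand setting and the treatment of multi-mapping reads are not given in the sources used here. Symbols were found for 6014 of 6697 CDS.

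Counts were scaled with edgeR 4.0.16 TMM over the 8 libraries of a type in R 4.3.3, and all ratios used a pseudocount of 0.5. A gene was kept when its mean over those libraries was 10 reads or more, and ranked for naming from a mean of 50 reads. With 1 library per condition and type, no model was fitted and no p-value computed. A gene was called at 2-fold or more in the same direction in both types. Intervals are 95% intervals for counting error only, computed as if reads were independent. Reads after PCR are not independent molecules, so the intervals may be too narrow. Intervals of medians over genes use order statistics, and genes are not replicates. The named genes are the 12 highest and 12 lowest by the smaller change, up to 2 per list and direction, and hallmark genes of the pathways. RP genes and the listed strain markers, a-specific and alpha-specific genes were left out of the ranking, which kept other mating genes such as *FUS1*. Members, lists and rules were chosen with earlier results of these data known, so no list is independent evidence.

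Promoter letters and sequence windows were read from RefSeq R64, whose chromosomes are those of the files. DESeq2 1.42.0 size factors, total counts, TMM without RP genes, TMM on the compared libraries, other filters, a pseudocount of 1 and each library type alone were tried as alternatives. Calculations were tested on simulated data in Python 3.11.15 with numpy 2.4.6, pandas 2.3.3 and scipy 1.17.1, and plots used matplotlib 3.10.9.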

Additional observations from a re-analysis of the deposited data

How the results depend on the processing

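No paired analysis was possible because each condition had 1 library per type. Between the scalings every log2 change moved by −0.05 to 0.05, and no named gene changed sign. The counts in both types ran over 695 to 734 higher and 940 to 1019 lower genes with the other scalings, filters and pseudocount, and were 705 and 982 with only genes whose counting interval leaves out 0. With a single library type in place of both they were 962 and 1274 (polyA) or 997 and 1208 (ribo-depleted). Without overlapping and repeated genes, an alternative chosen after seeing the data, 627 higher and 866 lower genes were counted. All these counts are within 1.5 times those reported. Every median of a gene group stayed within its interval, or for the smallest groups within the range of its genes, and its sign differed for at most 7 of 74 medians in any alternative, all near 0. With total counts 77 of 336 values of named genes left their counting interval. The median change in intron retention ran between −1.99 and −1.68 in polyA and between −1.17 and −1.02 in ribo-depleted RNA. Depth limits the lowest genes, such as *COX26* with 4 reads and *SIP18* with 2 reads in high glucose, and what a second culture would show cannot be read from these libraries.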
